A study of Mus musculus with 27 samples.

Results

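Bone marrow cells kept with Flt3 ligand (Flt3-L) for 24 h were compared with unstimulated bone marrow cells over all genes measured. The comparison takes 6 of the 27 arrays of the study, chosen by their titles: 3 with Flt3-L for 24 h and 3 unstimulated. All came from femurs and tibiae of C57BL/6 mice aged 8 to 12 weeks, and the labels name no altered gene. The ligand was given at about 200 ng/ml in medium with fetal calf serum and was made by transfected B16 tumour cells. None of the 6 arrays received the calcineurin inhibitor cyclosporin A, which other cultures of the study did. Whether the unstimulated cells had been cultured is not in the labels, and no culture without the ligand was used here, so the ligand and the hours in culture cannot be told apart. The labels also do not say whether an array holds 1 animal or several. The p-values therefore measure only the spread between arrays of a group, which may be technical. That spread was pooled over all 27 arrays of the study, including the cyclosporin A cultures.

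Flt3 is a receptor tyrosine kinase of early blood progenitors, and its ligand drives them toward dendritic cells and other myeloid cells. Marrow also holds dividing red cell precursors, which depend on a different factor, erythropoietin. Beside them are granulocytes at all stages, B cell precursors, resident macrophages that take up the nuclei shed by red cell precursors, and smaller numbers of lymphocytes and stromal cells. An array of whole marrow reads the RNA of all these cells together, so fewer cells of a type and less RNA per cell cannot be told apart in any result below.

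Values are log2 probe set signals of 3 arrays a group, given in the order of the array numbers. A difference is the 24 h mean minus the unstimulated mean with its standard error from a limma model, and a gene was called when its limma p-value, adjusted over 19935 genes, was below 0.05. Of these genes 3565 (17.9%) were called higher and 3538 (17.7%) lower at 24 h, 35.6% in all, with a median difference over all genes of 0.039. The call reaches small changes, since the smallest difference called was 0.11. Changes of at least 2-fold were called in 245 genes upward (1.23%) and 413 downward (2.07%). Changes of at least 8-fold were called in 14 upward and 15 downward. All 24 h arrays lay above all unstimulated ones in 25.3% of genes and below them in 20.5%. Marrow markers were bright on the unstimulated arrays, with means of 12.61 for Alas2 of red cell precursors and 12.54 for S100a8 of neutrophils. Each of the 6 arrays correlated best with an array of its own group, and array medians lay between 7.14 and 7.19.

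**Figure D1:**
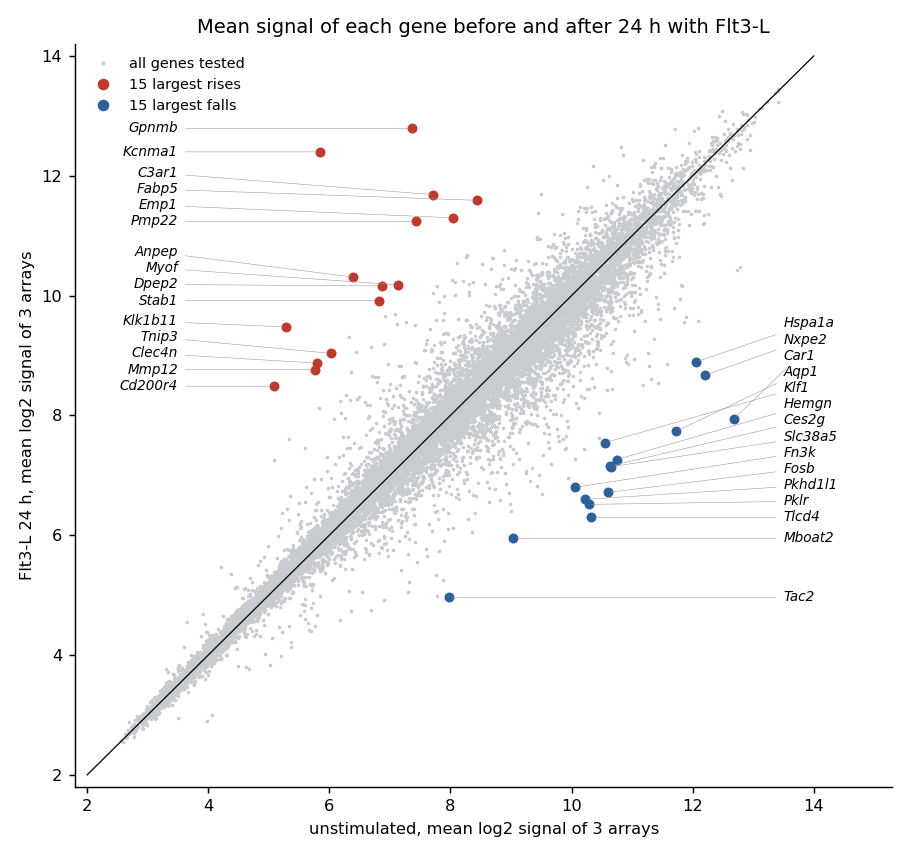
Mean log2 signal of each of 19935 genes on the 3 unstimulated arrays (horizontal axis) and on the 3 Flt3-L 24 h arrays (vertical axis), with the line of equal signal. Red and blue points are the 15 largest rises and the 15 largest falls among called genes whose arrays did not overlap, such as Gpnmb at 7.36 and 12.79 and Car1 at 12.68 and 7.94.

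The largest rises included genes of macrophages and of the cell surface. Gpnmb, a transmembrane glycoprotein of macrophages and pigment cells, read 7.15, 7.60 and 7.34 on the unstimulated arrays and 12.76, 12.78 and 12.84 at 24 h. The groups lay far apart, a 43.1-fold rise (5.43 ± 0.071, adjusted p = 1.35e-25). Anpep, the surface aminopeptidase known as CD13, went from 6.14, 6.64 and 6.42 to 10.20, 10.36 and 10.36, a 15-fold rise. C3ar1, the receptor for the complement fragment C3a, stood at 7.49, 7.85 and 7.80 and then at 11.66, 11.72 and 11.67.

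The other large rises were spread over several roles. Pmp22 (14.1-fold) and Emp1 (9.61-fold) encode membrane proteins of the same family. Dpep2 (9.73-fold) encodes a dipeptidase, Fabp5 (8.86-fold) a carrier of fatty acids and Stab1 (8.6-fold) a scavenger receptor. Myof (8.27-fold) serves membrane repair, Tnip3 (8.04-fold) restrains NF-kappaB signalling and Mmp12 (7.99-fold) is the macrophage elastase. Klk1b11 (18.3-fold), Cd200r4 (10.6-fold) and Clec4n (8.47-fold), the fungal receptor Dectin-2, belong to families with closely similar members, so their probe sets may also read relatives. With the Kcnma1 probe set described next, 11 of the 15 largest rises were called higher at 24 h than at 12 h, against 5.59% of all genes. They were chosen for high signal on the same 24 h arrays, so this count is a description. Anpep was higher at 24 h than at 12 h by 1.55, Fabp5 by 1.5 and Mmp12 by 1.4 on the log2 scale. Clec4n ran the other way and differed from its 12 h level by -0.53.

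The largest difference of all, 93.5-fold, belonged to a probe set assigned to Kcnma1, a potassium channel gene. It read 5.96, 5.66 and 5.94 on the unstimulated arrays and 12.44, 12.36 and 12.40 at 24 h. RefSeq places Kcnma1 on chromosome 14, but the number of this probe set falls among those of genes on chromosome 8. Another probe set of the gene, whose neighbours by number are on chromosome 14, had means of 4.91 and 4.85 and differed by -0.062. The difference is therefore given for the probe set and not for the channel gene. The same check placed 2.87% of 21381 probe sets among those of another chromosome, and the brightest probe sets of Fabp5, Prdx1, Hspd1, Hsp90aa1 and Hspb1 were among them.

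Macrophage genes rose as a group. Of 44 tested, 34 were called higher and 2 lower, with a median difference of 0.85 against 0.039 over all genes. Their summed linear signal was between 38308 and 39959 on the unstimulated arrays and between 81522 and 84372 at 24 h. Against Flt3-L cultures at 12 h, 29 were called higher and 0 lower, where 5.59% of all genes were called higher and 5.52% lower. Both comparisons use the same 24 h arrays, and the count of 1114 genes higher than at 12 h was 715 without 24 h array 2.

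Receptors for lipid and debris did not all move alike. Trem2, a lipid receptor, read 8.16, 8.05 and 8.11 and then 10.59, 10.49 and 10.54 (2.43 ± 0.066). The scavenger receptor Msr1 rose 4-fold and the lysosomal glycoprotein Cd68 2.8-fold. Mertk, through which macrophages engulf dying cells, read 8.13, 7.65 and 7.83 unstimulated and 9.58, 9.63 and 9.56 at 24 h (1.72 ± 0.15, adjusted p = 7.17e-10). Its 12 h mean of 7.52 lay under the means of both groups. The mannose receptor Mrc1 had the same low point without a net call: its means were 8.59 unstimulated, 6.86 at 12 h and 8.79 at 24 h, and it differed from unstimulated cells by 0.20 ± 0.16 (adjusted p = 0.379). Cd163, the haemoglobin scavenger receptor of resident macrophages, was 1.64-fold lower, with 6.35, 6.0 and 6.14 against 7.22, 6.59 and 6.83. Timd4, another receptor of resident macrophages, differed by -0.23 ± 0.13 (adjusted p = 0.199), and was called lower when only these 2 groups were fitted (adjusted p = 0.044 by limma).

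Complement and Fc receptor genes were called higher in 9 of 10 cases. The chains of complement C1q form a single protein, and C1qb rose 2.48-fold (1.31 ± 0.12) and C1qc 1.72-fold (0.78 ± 0.17). C1qa, the remaining chain, read 8.79, 8.41 and 8.39 and then 8.80, 8.85 and 8.27 and differed by 0.11 ± 0.15 (adjusted p = 0.627). Its groups overlapped. All 3 chains had lower means at 12 h (7.35 for C1qa, 9.43 for C1qb, 8.19 for C1qc) than in unstimulated cells (8.53, 10.10 and 9.41), and each was called higher at 24 h than at 12 h. Fcgr1, the high-affinity receptor for IgG, rose 2.86-fold.

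Among macrophage enzymes and secreted products, 9 of 10 were called higher. Lpl, lipoprotein lipase, rose 5.26-fold, Fabp4, a fatty acid carrier also made by endothelium, 4.26-fold, and Apoe, a lipid transport protein, 3.19-fold. Atp6v0d2, a proton pump subunit of macrophages and osteoclasts, read 6.90, 7.54 and 7.37 and then 9.48, 9.53 and 9.68 (2.30 ± 0.11). Its mean at 12 h was 7.44, near the unstimulated mean of 7.27. Acp5, the tartrate-resistant acid phosphatase, was called lower (-0.59 ± 0.069).

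**Figure D2:**
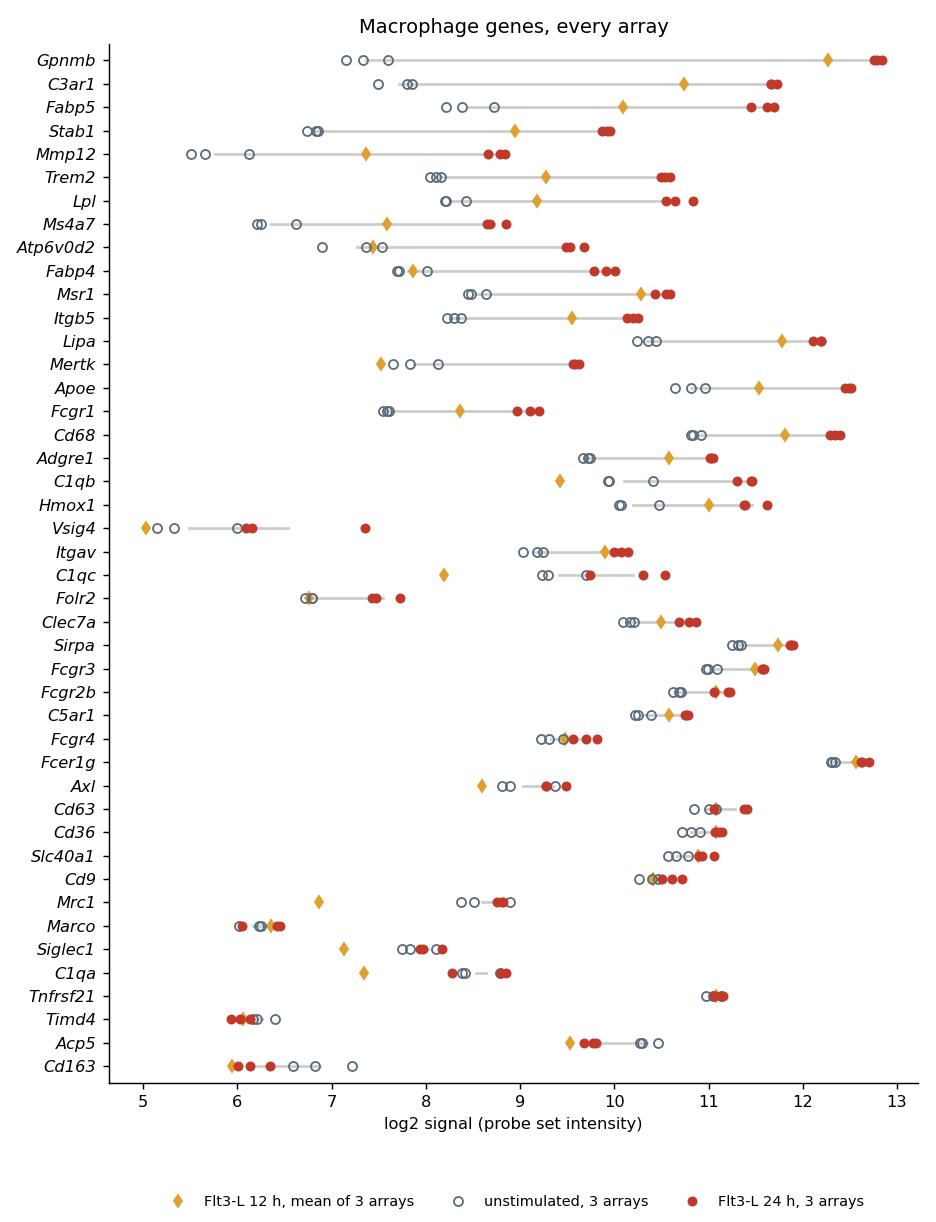
Log2 signal of each of 44 macrophage genes on the 3 unstimulated arrays (open circles) and the 3 Flt3-L 24 h arrays (red), with the mean of the 3 Flt3-L arrays at 12 h (orange diamonds). Genes are ordered by their difference, from Gpnmb (5.43) to Cd163 (-0.72). For some genes the diamond is at a lower signal than both group means. Among these are Mertk, Mrc1, C1qa, C1qb, C1qc, Siglec1, Axl, Vsig4 and Cd163.

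Lysosomes are the acid compartments in which engulfed material is broken down, and 63 of 76 lysosome genes were called higher and 4 lower (median 0.58). By role, 10 of 14 proteases, 19 of 24 hydrolases, 12 of 14 membrane proteins and 16 of 17 proton pump genes were higher. Lgmn, a protease that matures other lysosomal proteases, read 9.69, 9.27 and 9.51 and then 11.72, 11.78 and 11.59, a 4.61-fold rise (2.20 ± 0.085). Lipa, which frees cholesterol and fatty acids from engulfed lipoproteins, rose 3.52-fold, and Npc1, which moves that cholesterol out of the lysosome, 2.88-fold. The cathepsin genes Ctss and Ctsd rose 2.94-fold and 2.09-fold. Mitf, a factor that switches on lysosomal genes, rose 2.68-fold, and its relatives Tfe3 and Tfeb 1.51-fold and 1.32-fold. Flcn and Fnip2, partners that control these factors at the lysosome, rose 2.17-fold and 2.65-fold. Against 12 h, 36 of the genes were called higher and 2 lower.

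Factors of the Mitf family bind a palindrome named CLEAR, TCACGTGA. Promoters were taken from RefSeq (build GRCm38.p6) as 250 bases before to 50 bases after each start, which gave 19175 promoters for 15612 of the genes tested. CLEAR was in 9 of 78 lysosome promoters (11.5%) and in 1.32% of all promoters. Ctsd is printed as a gene of the list that rose and holds CLEAR, chr7:142387828-142387977 on the minus strand, 5′ to 3′, the 150 bases before the start with CLEAR in capitals.
Ctsd: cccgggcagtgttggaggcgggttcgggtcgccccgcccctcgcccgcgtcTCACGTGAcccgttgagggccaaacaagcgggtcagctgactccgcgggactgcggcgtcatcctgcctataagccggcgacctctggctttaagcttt
The match begins at position -99 from the start. A match describes letters only and is not evidence of binding.

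Sterol synthesis genes rose and were near their 24 h level by 12 h. Of 25 genes, 20 were called higher and 0 lower (median 0.67), while against 12 h 1 was higher and 4 were lower. Hmgcs1, an early enzyme of the mevalonate pathway, read 8.64, 8.91 and 8.85 and then 10.09, 10.19 and 10.18, a 2.56-fold rise (1.35 ± 0.065). The groups did not overlap, and the 12 h mean was 10.30. The later enzymes Msmo1 and Cyp51 rose 2.15-fold and 2.04-fold, and Insig1, a feedback sensor of sterols, 1.84-fold. Srebf2, the factor that drives the pathway, rose 1.39-fold. The sterol response element, searched as TCACNCCAC, was in 1 of 28 promoters of the list (3.57%) and in 1.18% of all. Of 15 genes listed for fatty acid synthesis 3 were higher and 5 lower, beside 17.9% and 17.7% of all genes. The 3 include Mvp (1.69-fold), which encodes the major vault protein and is not an enzyme of that synthesis. Fasn, the fatty acid synthase, differed by 0.089 ± 0.053 (adjusted p = 0.214), and the desaturase Scd1 was 1.89-fold lower.

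For cholesterol efflux and lipid handling, 13 of 20 genes were called higher and 4 lower (median 0.65). Nr1h3, the oxysterol receptor LXR alpha, rose 2.57-fold and Pparg, a lipid-sensing nuclear receptor, 2.16-fold. The cholesterol exporter Abca1 rose 1.52-fold, while its relative Abcg1 differed by -0.087 ± 0.071 (adjusted p = 0.383). Plin2, which coats lipid droplets, rose 1.74-fold.

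Dendritic cells take up and present antigen. Of 39 conventional dendritic cell genes, 24 were called higher and 4 lower (median 0.41), and 3 of them rose at least 2-fold. These were Clec10a, a lectin of the cDC2 subset (2.54-fold), Ccl22, a chemokine of activated dendritic cells (2.27-fold), and Marcks, an actin-binding protein (2.05-fold). Itgax, which encodes CD11c, read 7.45, 7.55 and 7.62 and then 8.49, 8.46 and 8.47, a 1.91-fold rise (0.93 ± 0.052). Of 12 genes of the cross-presenting cDC1 subset 5 were called higher and 2 lower, among them the RNA sensor Tlr3 (1.6-fold higher), the adhesion molecule Cadm1 (1.49-fold higher) and Snx22, a sorting nexin (2.88-fold lower). Others of that subset did not pass the test, such as Xcr1 at 0.20 ± 0.17 (adjusted p = 0.419), Clec9a at 0.057 ± 0.13 (adjusted p = 0.784) and the factor Batf3 at 0.14 ± 0.091 (adjusted p = 0.254). Zbtb46, a factor of conventional dendritic cells, was 1.27-fold lower, at 7.02, 6.94 and 6.93 against 7.40, 7.23 and 7.29. Ccr7, the lymph node homing receptor, differed by -0.0096 ± 0.13 (adjusted p = 0.967).

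Plasmacytoid dendritic cells are a source of type I interferon, and 13 of 21 genes listed for them were called higher and 3 lower. The list is not confined to these cells, since the higher genes include Mpeg1, macrophage expressed gene 1 (2.13-fold). Ccr9, a homing receptor, read 8.93, 8.91 and 8.81 and then 10.86, 10.69 and 10.76, a 3.7-fold rise (1.89 ± 0.14). Siglech, a surface lectin of these cells, rose 1.83-fold and the nucleic acid sensor Tlr7 2.29-fold. Bst2, another surface marker of these cells, did not pass the test (0.081 ± 0.054, adjusted p = 0.281 by limma). Cd209d, also of the list, was 1.7-fold lower. Irf7, the interferon regulator, was 1.49-fold lower. MHC class II genes, whose products show peptides to helper T cells, were higher in 12 of 16 cases and lower in 0. The chains H2-Ab1 and H2-Aa rose 1.66-fold and 1.59-fold, their partner Cd74 1.35-fold and the regulator Ciita 1.42-fold. At 12 h the mean of H2-Aa was 11.24, beside 11.25 unstimulated and 11.92 at 24 h, and 11 of the class II genes were called higher at 24 h than at 12 h.

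Growth factor receptors were called higher in 17 of 22 cases and lower in 2. The receptor of the added ligand, Flt3, read 8.20, 8.39 and 8.43 unstimulated and 9.18, 9.28 and 9.22 at 24 h, a 1.85-fold rise (0.89 ± 0.092, adjusted p = 1.82e-08). Csf1r, the receptor for macrophage colony-stimulating factor, rose 2.23-fold, Csf2rb2, a chain of the mouse interleukin 3 receptor, 2.6-fold and Il7r, the interleukin 7 receptor, 2.16-fold. Kit, the stem cell factor receptor, was 1.28-fold lower (-0.35 ± 0.12, adjusted p = 0.0198), and Epor, the erythropoietin receptor, 4.38-fold lower. The call of Kit was lost without unstimulated array 2 (adjusted p = 0.0565 by limma), unstimulated array 3 (0.0885) or 24 h array 3 (0.0736). Progenitor genes were split, with 5 of 19 higher and 4 lower, beside 17.9% and 17.7% of all genes. Cd93 and Cd34, surface proteins of early cells, rose 2.68-fold and 1.43-fold, while the stem cell factors Meis1 (-0.046 ± 0.10, adjusted p = 0.768) and Myb (-0.036 ± 0.052, adjusted p = 0.655) did not pass the test.

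Transcription factors of dendritic cells and macrophages were higher in 11 of 18 cases and lower in 2. Bhlhe41, a repressor found in tissue macrophages, read 5.90, 6.17 and 6.44 and then 8.11, 8.25 and 8.35, a 4.19-fold rise (2.07 ± 0.13). Its relative Bhlhe40 rose 2.75-fold and Maf, a macrophage factor, 3.36-fold. Klf4, a monocyte factor that is also an immediate early gene, was 2.28-fold lower. Of 20 factors of granulocytes, red cells and lymphocytes 2 were higher and 8 lower. The higher ones were Cebpa, a factor of granulocyte and monocyte commitment (2.09-fold), and Id3, an inhibitor of E proteins (2.52-fold). The lower ones included the red cell factors described below, Tcf3, an E protein (1.34-fold), and Cebpb, a relative of Cebpa (1.36-fold). Among monocyte genes 10 of 18 were higher and 4 lower, and Fn1, fibronectin, was 3.08-fold lower, at 10.11, 10.30 and 10.12 against 11.76, 11.88 and 11.76.

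Red cell precursor genes fell as a group. Of 29 erythroid genes tested, 26 were called lower and 0 higher (median -1.90), and 19 fell at least 2-fold. Their summed linear signal was between 84135 and 91238 unstimulated and between 39073 and 43062 at 24 h. Car1, carbonic anhydrase 1, read 12.76, 12.64 and 12.66 and then 7.62, 7.77 and 8.44 (-4.74 ± 0.23, adjusted p = 1.7e-14). The third 24 h array was the highest of its group. The water channel Aqp1 was 15.9-fold lower, at 7.65, 7.68 and 7.86 against 11.76, 11.62 and 11.78. All 6 regulators of the list fell, with Gata1 3.98-fold and Tal1 2.58-fold lower and Klf1, the master factor of red cell genes, at 7.64, 7.52 and 7.47 against 10.59, 10.42 and 10.64.

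The genes of 1 pathway or structure fell unequally. Alas2, which starts haem synthesis in red cells, read 12.70, 12.53 and 12.61 and then 12.74, 12.64 and 12.73 and differed by 0.093 ± 0.064 (adjusted p = 0.293). Alad and Cpox, later enzymes of the same pathway, were 5.72-fold and 7.37-fold lower, and Fech, the enzyme of the last step, 1.3-fold. In the membrane and its skeleton, Sptb, beta spectrin, was 5.48-fold lower, Slc4a1, the band 3 anion exchanger, 1.25-fold lower, and the actin cap Tmod1 differed by -0.038 ± 0.094 (adjusted p = 0.799). With the mean of its probe sets Tmod1 was called lower (-0.33). Against 12 h, 27 of the 29 genes were called lower. Outside the list, Pklr, pyruvate kinase of liver and red cells, was 13.6-fold lower, Hemgn, a nuclear protein of red cell precursors, 11.2-fold and Slc38a5, an amino acid transporter, 11.4-fold. Tlcd4 (16.2-fold), Pkhd1l1 (12.4-fold), Nxpe2 (11.6-fold), the carboxylesterase Ces2g (11.2-fold), the kinase Fn3k (9.55-fold), the acyltransferase Mboat2 (8.53-fold) and the tachykinin gene Tac2 (8.06-fold) were also among the 15 largest falls, as were Fosb and Hspa1a among the stress genes below.

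GATA factors of the red cell lineage bind AGATAA. It was present on either strand in 7 of 29 erythroid promoters (24.1%) and in 9.25% of all. Rhd, a blood group membrane protein that was 4.92-fold lower, is printed as a gene of the list that fell and holds it, chr4:134864386-134864535 on the plus strand, 5′ to 3′, the 150 bases before the start with AGATAA in capitals.
Rhd: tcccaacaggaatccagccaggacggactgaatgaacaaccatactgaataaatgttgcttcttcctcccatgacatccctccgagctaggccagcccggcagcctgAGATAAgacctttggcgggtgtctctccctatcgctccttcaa
The match begins at position -43 from the start. Rhd read 11.86, 11.80 and 11.90 unstimulated and 9.47, 9.46 and 9.73 at 24 h.

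**Figure D3:**
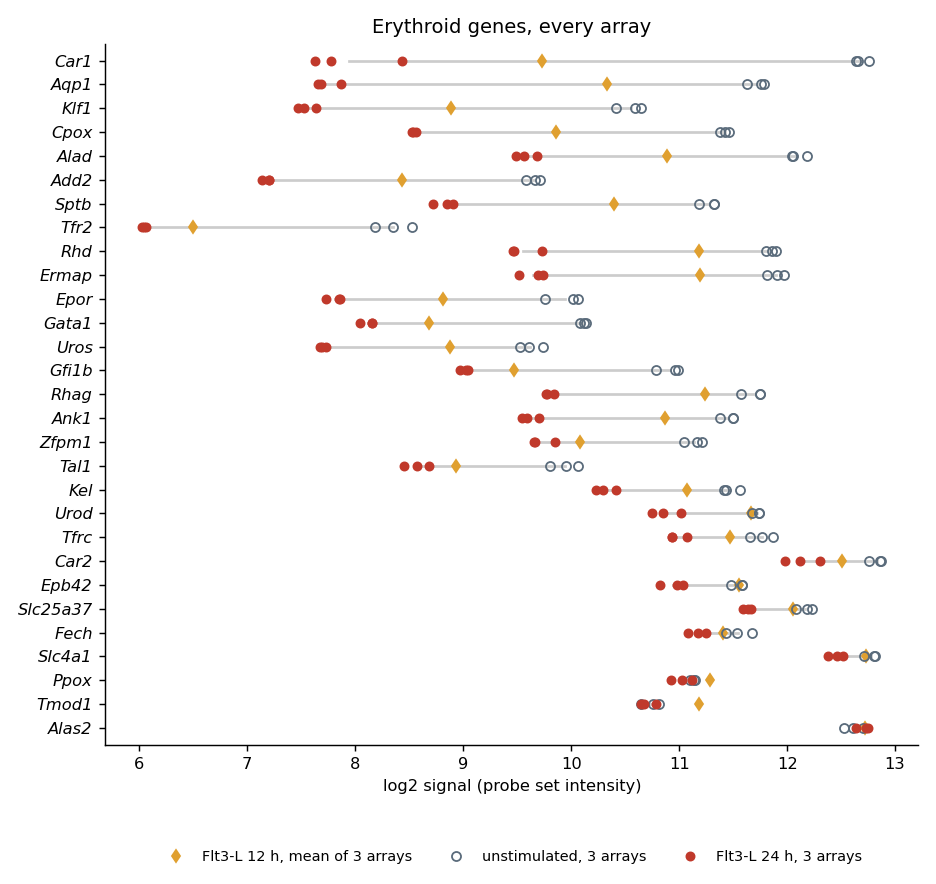
Log2 signal of each of 29 erythroid genes on the 3 unstimulated arrays (open circles) and the 3 Flt3-L 24 h arrays (red), with the mean of the 3 Flt3-L arrays at 12 h (orange diamonds). The genes run from Car1 (-4.74) to Alas2 (0.093).

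Genes of cell division fell in nearly every case. Of 54 DNA replication genes, 52 were called lower and 1 higher (median -0.98), and of 56 mitosis genes 55 were lower and 0 higher (median -0.99). Orc1, which marks replication origins, read 8.64, 8.58 and 8.67 and then 6.57, 6.63 and 6.46, 4.21-fold lower (-2.07 ± 0.10). Cdc6, which loads the helicase at origins, was 3.33-fold lower, Ccne1, cyclin E1, 3.48-fold and Tyms, thymidylate synthase, 2.6-fold. Among mitosis genes, the factor Mybl2 was 2.68-fold lower, the kinase Aurka 2.31-fold and Birc5, survivin, 2.46-fold. Mki67, the proliferation marker, read 12.49, 12.40 and 12.52 and then 11.66, 11.69 and 11.65 (-0.80 ± 0.050).

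Ccnd1, cyclin D1, which links growth factors to the cell cycle, was the replication gene called higher. It read 8.90, 8.64 and 8.83 and then 9.72, 9.71 and 9.68, a 1.88-fold rise (0.91 ± 0.068). Ccnd2, its close relative (-0.031 ± 0.068, adjusted p = 0.778), and Pttg1, securin (0.015 ± 0.053, adjusted p = 0.862), did not pass the test. Beside 17.9% higher and 17.7% lower over all genes, 1 of 6 inhibitors of cyclin-dependent kinases was higher and 2 were lower. These were Cdkn1b, p27 (1.14-fold higher), and Cdkn2c and Cdkn2d (1.72-fold and 1.51-fold lower). The Cdkn1b call was lost without unstimulated array 2 (adjusted p = 0.0569 by limma) or 24 h array 3 (0.129).

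The course over time is given for both lists, and whether it differed between them was not tested. The median of the replication list was -0.81 at 12 h against unstimulated cells and -0.13 from 12 h to 24 h, with 22 genes called lower than at 12 h. The median of the mitosis list was -0.46 at 12 h and -0.49 from 12 h to 24 h, with 54 called lower than at 12 h. Prc1, which organises the midzone of the dividing cell, had means of 10.35 unstimulated, 9.85 at 12 h and 9.07 at 24 h. Mcm2, a subunit of the replication helicase, had means of 11.10, 9.95 and 9.81.

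Mitosis promoters can carry an element named CHR, TTTGAA, and replication promoters sites for E2F factors, TTTCCCGC. On either strand, CHR was in 34 of 49 mitosis promoters (69.4%) and in 14.8% of all. The E2F site was in 8 of 55 replication promoters (14.5%) and in 1.52% of all. Prc1, chr7:80294326-80294475 on the plus strand, and Cdc6, chr11:98908001-98908150 on the plus strand, are printed as genes that fell and hold a match, 5′ to 3′, the 150 bases before the start with the element in capitals. The match begins at -30 in Prc1 and at -138 in Cdc6, where it lies on the opposite strand and reads GCGGGAAA.
Prc1: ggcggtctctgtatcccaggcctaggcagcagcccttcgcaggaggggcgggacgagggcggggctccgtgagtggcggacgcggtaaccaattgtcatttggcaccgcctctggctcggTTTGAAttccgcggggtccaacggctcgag
Cdc6: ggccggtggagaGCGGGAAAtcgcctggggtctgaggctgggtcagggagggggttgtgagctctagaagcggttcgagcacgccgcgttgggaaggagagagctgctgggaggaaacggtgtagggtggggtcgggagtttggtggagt
Prc1 was 2.42-fold lower at 24 h.

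**Figure D4:**
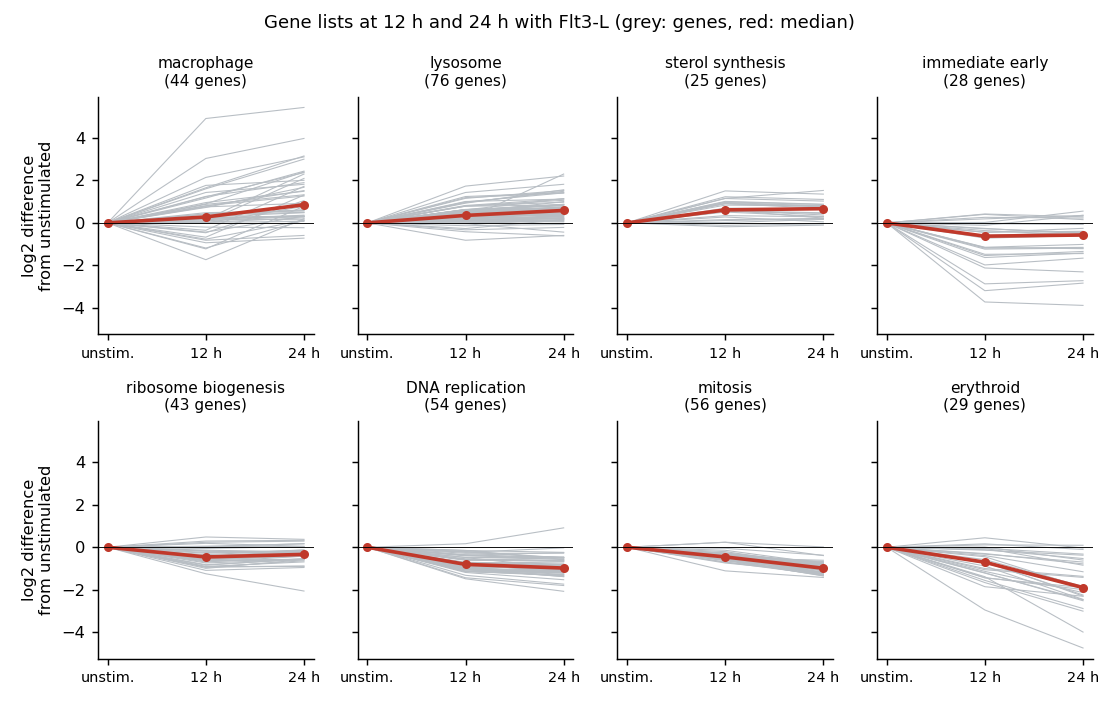
Log2 difference from unstimulated cells of each gene (grey) and the median (red) of 8 gene lists at 12 h and 24 h with Flt3-L, in 1 panel per list. The mitosis median is -0.46 at 12 h and -0.99 at 24 h, and the sterol median 0.61 and 0.67.

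The ribosome list holds 43 genes, of which 31 were called lower and 5 higher (median -0.34). Of 20 genes for processing ribosomal RNA 16 were lower and 0 higher, and of 13 genes of RNA polymerase I and the nucleolus 11 were lower and 1 higher. Of 10 genes of the Myc network, which the list also holds, 4 were lower and 4 higher. Nop58 and Dkc1, which act in the modification of ribosomal RNA, were 1.94-fold and 1.87-fold lower. Against 12 h, over the whole list, 7 genes were called higher and 1 lower. Myc, a driver of ribosome production, read 10.39, 10.23 and 10.26 and then 9.83, 9.88 and 9.99 (-0.39 ± 0.069). Odc1, the first enzyme of polyamine synthesis, was 4.17-fold lower. Mxi1, Mnt and Mxd4, antagonists of Myc, were 1.29-fold, 1.25-fold and 1.22-fold higher.

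Immediate early genes respond within minutes to stress or growth signals, and 20 of 28 were lower at 24 h and 4 higher (median -0.57). Fosb, a subunit of the factor AP-1, read 10.75, 10.67 and 10.36 unstimulated and 6.85, 6.72 and 6.57 at 24 h, 14.7-fold lower. Fos, another subunit, was 6.58-fold lower, the phosphatase Dusp1 4.94-fold, and Ptgs2, the inducible cyclooxygenase, 7.12-fold. Atf3, a stress-induced factor, was 1.47-fold higher. Heat shock genes were lower in 9 of 11 cases, and the chaperone gene Hspa1a went from 12.01, 12.14 and 12.0 to 9.05, 8.82 and 8.81, 8.93-fold lower. Of 16 genes of protein folding in the endoplasmic reticulum 4 were higher and 4 lower, beside 17.9% and 17.7% of all genes. Hspa5, the chaperone BiP, differed by -0.13 ± 0.062 (adjusted p = 0.118 by limma), which became a call without 24 h array 3 (-0.18).

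Inflammatory genes were divided. Genes of NF-kappaB and its feedback were higher in 11 of 14 cases and lower in 1. Of 15 cytokine genes 5 were higher and 3 lower, beside 17.9% and 17.7% of all genes. Il1b, interleukin 1 beta, was 2.62-fold lower, at 9.23, 9.16 and 8.87 against 10.47, 10.54 and 10.41, and Osm, oncostatin M, 3.58-fold lower. Il1a, interleukin 1 alpha, was 1.77-fold higher. Among chemokine ligands 8 of 20 were higher and 5 lower, beside the same shares of all genes. Cxcl2, which attracts neutrophils, was 6.76-fold lower, at 7.08, 7.56 and 7.69 against 10.58, 10.36 and 9.66. Cxcl16, a membrane-bound ligand of macrophages and dendritic cells, rose 3.54-fold, and the monocyte attractant Ccl7 2.2-fold. Of 29 interferon-stimulated genes 5 were higher and 6 lower, near the shares of all genes (17.9% and 17.7%). Among them the antiviral gene Oas3 was 2.11-fold lower.

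Of 25 late neutrophil genes, 8 were called higher and 4 lower (median 0.077), beside 17.9% and 17.7% of all genes. Receptor genes held the largest changes, with Ptafr, the receptor for platelet-activating factor, 2.24-fold and the lectin Clec4d 2.05-fold higher, and Trem1, an activating receptor, 2.1-fold lower. S100a8, a subunit of calprotectin, read 12.61, 12.51 and 12.51 and then 12.65, 12.60 and 12.56, and Lcn2, lipocalin 2, differed by 0.0087 ± 0.074 (adjusted p = 0.944). The S100a8 groups overlapped. Ly6g, the surface marker of neutrophils, was 1.51-fold lower. Of 15 genes listed for primary granules and promyelocytes, 10 were called lower and 1 higher, with the proteinase Prtn3 2.05-fold and myeloperoxidase, Mpo, 1.66-fold lower. The 10 include Nkg7 and Gzmb, also genes of cytotoxic lymphocytes, which were 3.14-fold and 1.54-fold lower.

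Of 13 genes listed for natural killer and cytotoxic cells, 11 were called lower and 0 higher. Klrd1, a receptor chain of natural killer cells that was counted with the conventional dendritic cell genes, was 1.66-fold higher. Ncr1, the NKp46 receptor, went from 7.94, 7.65 and 7.74 to 5.0, 4.95 and 5.02, 6.89-fold lower, and Il2rb, a receptor chain for interleukins 2 and 15, was 3.88-fold lower. T cell genes were lower in 6 of 13 cases, with Cd3g, a chain of the T cell receptor complex, 2.46-fold lower. Cd28, a costimulatory receptor, was higher, at 8.76, 8.93 and 8.86 against 6.92, 7.08 and 6.91 (1.88 ± 0.067). The summed linear signal of the 26 genes was between 5993 and 6363 unstimulated and between 4697 and 5006 at 24 h. With the dimmest genes left out, 11 of the list were called lower in place of 17.

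B lineage genes were split, with 8 of 24 higher and 5 lower, beside 17.9% and 17.7% of all genes. Dntt, the nucleotide-adding enzyme of early lymphocytes, was 2.09-fold lower, Igll1, a chain of the precursor B cell receptor, 1.98-fold, and Fcer2a, CD23 of mature B cells, 2.73-fold. Cd79a, a signalling chain of B cells at all stages, differed by -0.013 ± 0.10 (adjusted p = 0.94). Leaving out unstimulated array 2 or 24 h array 1 gave 5 higher B lineage genes.

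Genes of mast cells, basophils and eosinophils were higher in 4 of 20 cases and lower in 8, beside 17.9% and 17.7% of all genes. Epx, eosinophil peroxidase, was 2.22-fold lower. Hpgds, a prostaglandin D synthase, rose 6.11-fold, from 7.40, 6.94 and 6.91 to 9.68, 9.69 and 9.71, whereas the mast cell protease Cpa3 differed by -0.0034 ± 0.12 (adjusted p = 0.986). Of 22 stromal and endothelial genes, 14 were called lower and 2 higher, and with the dimmest genes left out 8 were called lower. Ibsp, a bone matrix protein, was 6.18-fold lower, the matrix protein Sparc 4.57-fold and Cxcl12, the chemokine that holds progenitors in marrow, 3.08-fold. Of 13 megakaryocyte genes 1 was called higher and 2 lower, beside 17.9% and 17.7% of all genes.

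**Figure D5:**
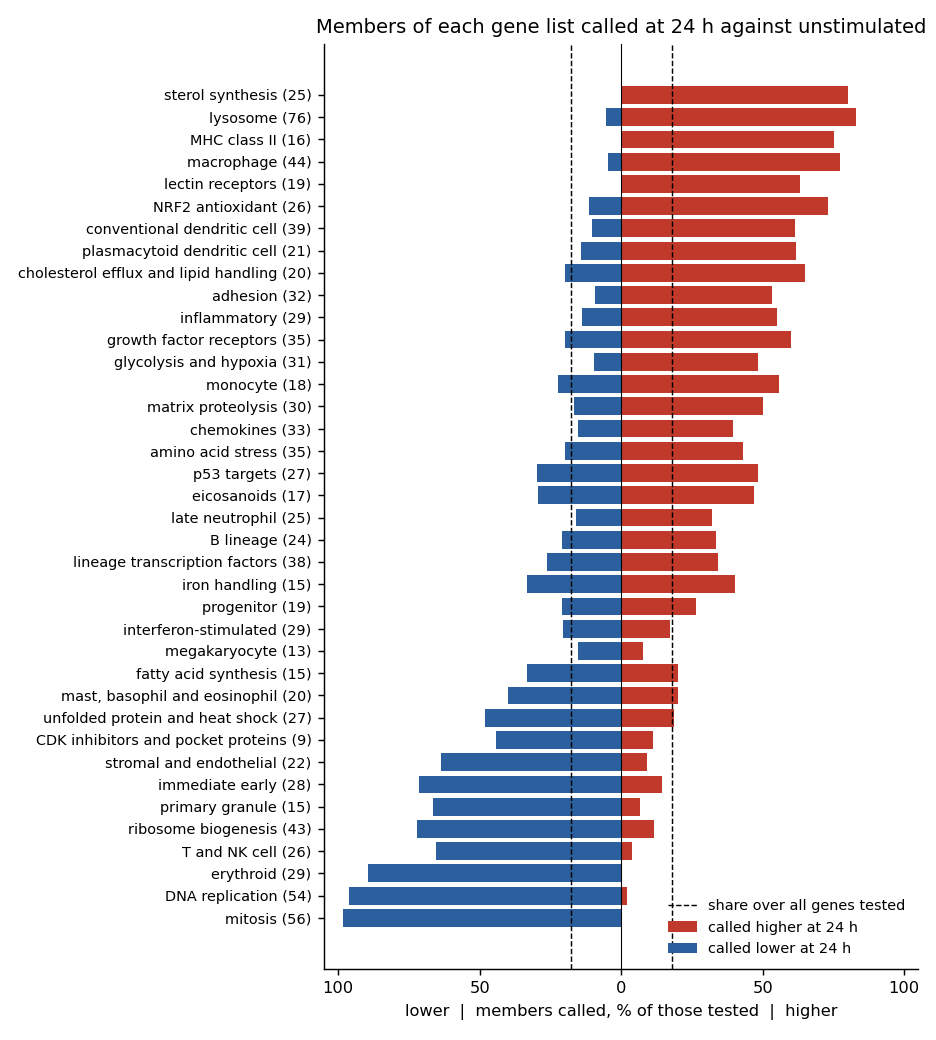
Percentage of the tested members of each gene list called higher (red) and lower (blue) at 24 h against unstimulated cells. The dashed lines mark the shares over all genes, 17.9% higher and 17.7% lower.

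Targets of NRF2, the regulator of antioxidant defence, were higher in 19 of 26 cases and lower in 3 (median 0.33). Slc7a11, which imports cystine for glutathione synthesis, read 7.96, 8.44 and 8.37 and then 10.68, 10.64 and 10.62, a 5.25-fold rise. Srxn1, which repairs peroxiredoxins, rose 3.01-fold and Hmox1, which breaks down haem, 2.4-fold. Nqo1, a quinone reductase and well-known NRF2 target, differed by -0.043 ± 0.16 (adjusted p = 0.87), and Gclc, an enzyme of glutathione synthesis, was 1.51-fold lower. The antioxidant response element, searched as TGACTCAGC, was in 2 of 30 promoters of the list (6.67%) and in 0.438% of all.

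ATF4 and its targets, which respond to amino acid shortage, were higher in 13 of 24 cases and lower in 5. Of 11 tRNA synthetase genes in the same list of amino acid stress 2 were higher and 2 lower. The median of the whole list of 35 genes was -0.016. Against 12 h, 1 of these 35 genes was called higher and 14 lower, where 5.59% and 5.52% of all genes were. Trib3, a pseudokinase, rose 2.25-fold and Ddit3, the stress factor CHOP, 1.9-fold, whereas Asns, asparagine synthetase, was 1.19-fold lower. Among p53 targets 13 of 27 were higher and 8 lower, with Sesn2, a restraint on growth, 1.85-fold higher and Ckap2, a spindle protein, 2.4-fold lower. Genes of glycolysis and hypoxia were higher in 15 of 31 cases and lower in 3, and the muscle-type phosphofructokinase Pfkm was 2.87-fold lower. In iron handling 6 of 15 were higher and 5 lower, beside 17.9% and 17.7% of all genes. Steap3, the iron reductase of red cell precursors, was 4.07-fold lower, and the iron exporter Slc40a1 1.23-fold higher.

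C-type lectin receptors, many of which bind sugars on microbes, were higher in 12 of 19 cases and lower in 0 (median 0.60). Proteases of the matrix and cell surface were higher in 12 of 20 cases and lower in 2, with Mmp14, a membrane-bound collagenase, 3.4-fold higher and Ace, the angiotensin-converting enzyme, 2.51-fold lower. Adhesion genes were higher in 17 of 32 cases and lower in 3, and the integrin chain Itgb5 rose 3.72-fold. In eicosanoid metabolism 8 of 17 were higher and 5 lower, beside 17.9% and 17.7% of all genes. The leukotriene receptor Cysltr1 was 2.24-fold higher. Of 13 genes commonly used as references 1 was higher and 4 were lower, beside the same shares of all genes. Actb, beta actin, differed by 0.021 ± 0.041 (adjusted p = 0.74 by limma).

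Later means place the 24 h values in the study's course. Gpnmb had means of 12.79 at 24 h, 13.06 at 48 h and 13.38 at 11 days. Mmp12 had means of 8.76, 11.30 and 12.80 at the same times, and Klf1 of 7.55, 6.68 and 6.53. Xcr1, uncalled at 24 h, had means of 6.20, 7.52 and 10.09.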

How the data were processed

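The authors deposited linear probe set intensities that the submitters' processing notes credit to RMA; its version and settings are not given in the sources used here. The values ran from 5.2 to 18180.7, so log2 was taken here. RMA equalises the arrays' distributions, so a change shared by most genes would not show. Of 28815 probe sets, 21780 had 1 gene symbol in the platform annotation, which can be old; 1605 with several symbols were left out and 5430 were not named. The brightest probe set stood for a gene (19935 genes; 998 had several).

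A limma 3.58.1 model (R 4.3.3) took the means of 9 groups over all 27 arrays (18 residual degrees of freedom, Benjamini-Hochberg adjustment), tested on simulated data. Deviations of equally numbered arrays correlated at 0.35, 0.13 and 0.18, and those of unequally numbered arrays at -0.30 to 0.17. The numbers were therefore also fitted as a block. The 39 gene lists (1093 entries tested) and the comparison itself were chosen with earlier results of these data known. The entries hold 972 distinct genes, since lists share members. Lipa, for example, counts among the macrophage, lysosome and lipid handling genes, so the list counts are not independent of each other. The text names the 15 largest rises and falls whose arrays did not overlap (predicted genes, small RNAs, olfactory genes and immune receptor segments left out). From the lists it names some of the 6 most changed called members, not all, and other members whose role is described. Which of these list members were printed was not fixed by a rule. Alternatives covered variance, scaling, probe sets, dim genes and left-out arrays. Figures were drawn with matplotlib 3.10.9.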

Additional observations from a re-analysis of the deposited data

How the results depend on the processing

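The genes called against unstimulated cells numbered 3066 to 4044 higher and 3059 to 3878 lower over all alternatives, and subtracting array medians gave 3203 and 3736. With the dimmest genes left out (13290 kept), 11 T and NK cell genes and 8 stromal and endothelial genes were called lower, since fewer genes were tested. Leaving out single arrays gave 5 to 10 higher B lineage genes and 715 to 1055 genes higher than at 12 h. The replicate block over all arrays gave 3811 higher and 3672 lower, and over only these groups 4044 and 3604. Set against the same fit without it, the block changed 0 calls of the 295 genes recomputed. For these genes, 4969 of 4998 values over the alternatives against unstimulated cells kept their side of the threshold. Of the other values 24 lost the call and 5 gained it, and 0 called values reversed. Calls were lost for Kit and Cdkn1b, and for Elovl6, Ppia, Alox12 and Tubb1, which are not named in the report. They were gained for Timd4, Tmod1 and Hspa5. Probe sets near background limit the dim genes, and 3 arrays a group limit the precision of all.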

Other observations

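Other gene families with a member that rose steeply were looked at after their values were seen, so their counts are a description. All 4 Cd200r genes tested, which encode myeloid receptors related to the receptor for CD200, were called higher. Cd200r3 was only 1.2-fold higher (adjusted p = 0.0414 by limma) and its groups overlapped. Probe sets of this family may also read relatives, so the calls may not be separate. Of 9 genes for fatty acid binding proteins 4 were called higher and 0 lower, and beside Fabp5 and Fabp4 these held Fabp7, a form known from brain, at 6.24, 6.53 and 6.56 and then 9.25, 8.87 and 9.03 (6.09-fold). Of 19 Ms4a genes, a family of membrane proteins, 4 were higher and 5 lower, beside 17.9% and 17.7% of all genes. Ms4a4a was 4.41-fold and Ms4a6d 4.08-fold higher, and Ms4a8a 2.54-fold lower.

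Of 11 coagulation factor genes 2 were higher and 2 lower, a share near that of all genes (17.9% and 17.7%). F7 and F10, the genes of factors VII and X, were 4.18-fold and 3.44-fold higher, with F7 at 8.33, 8.43 and 8.27 against 5.94, 6.41 and 6.50. F8 and F13a1, the genes of factor VIII and of the A chain of factor XIII, were 1.88-fold and 1.4-fold lower. Of 15 Slc7a amino acid transporter genes 4 were higher and 2 lower, beside the same shares of all genes, with Slc7a8 3.86-fold higher. Of 24 Serpinb genes, a family of intracellular protease inhibitors, 3 were higher and 4 lower, again near the shares of all genes. Serpinb8 was 3.63-fold higher.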
